A study of Mus musculus with 12 samples.

Results

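The cell cycle genes described here were 50 mouse genes, of which 19 act in DNA replication and 31 in mitosis, chosen by symbol from the 31332 genes of the deposited count table. All 50 were present, and all 50 were among the 17268 genes with enough counts to be tested. The table held bulk RNA-seq counts of 12 libraries in 4 groups of 3, from thymic epithelial cells of C57BL6/J mice aged 2 months that were sorted by fluorescence into medullary (mTEC) and cortical (cTEC) cells after Liberase TH and DNase digestion. The groups were mTEC with the FoxN1-Cre transgene and both the LXRalpha flox and the LXR beta flox alleles, called Cre mTEC here (libraries 4, 5 and 6), mTEC with the floxed alleles and no Cre, called control mTEC (libraries 1, 2 and 3), and the same genotypes as Cre cTEC (libraries 10, 11 and 12) and control cTEC (libraries 7, 8 and 9). All 4 groups carried the floxed LXR alleles, no group had Cre without them, and the Foxn1 promoter drives Cre in thymic epithelium and also in skin epithelium. Nothing in the labels ties a library to an animal, so p-values measure the spread between these libraries only, which may be technical.

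Cell cycle genes are transcribed in waves. Genes of DNA replication rise toward S phase under E2F factors. Genes of mitosis rise in G2 under the MuvB complex with B-Myb and FoxM1, which acts through the cell cycle homology region (CHR) element. Promoters of mitosis genes often hold CCAAT boxes near that element, which are not sites of the MuvB complex itself. Medullary epithelium of the young adult thymus is known to turn over faster than cortical epithelium. Liver X receptors are nuclear receptors for oxysterols that control sterol efflux and lipogenesis, and have been linked to reduced proliferation in lymphocytes and other cells.

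The promoters of the genes were read for these motifs, and 6 are printed because their genes carry the results that follow. Windows from 250 bases before to 50 bases after each gene's start were available from RefSeq (GRCm38.p6) for 43 of the 50 genes, 16 of 19 replication genes in 20 windows and 27 of 31 mitosis genes in 28 windows. Motifs were searched on both strands. The CHR element was read as TTTGAA or with C in the middle as TTCGAA, and the CCAAT box as those 5 letters. The E2F core was read in 4 forms, the first being TTCCCGC, the second being TTCGCGC, the third being TTGCCGC and the fourth being TTGGCGC. E2F cores on opposite strands can overlap each other, and a CCAAT box can share letters with an E2F core. In the 4 mitosis promoters the capitals mark CHR and CCAAT matches, and in the 2 replication promoters they mark E2F cores.

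Top2a, chr11:99024140-99024439, minus strand: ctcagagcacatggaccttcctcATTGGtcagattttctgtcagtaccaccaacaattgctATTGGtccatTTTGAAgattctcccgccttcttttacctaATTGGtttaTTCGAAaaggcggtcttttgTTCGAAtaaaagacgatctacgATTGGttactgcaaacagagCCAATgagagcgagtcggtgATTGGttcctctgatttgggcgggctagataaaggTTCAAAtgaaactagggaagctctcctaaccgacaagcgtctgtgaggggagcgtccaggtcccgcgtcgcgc
Cdk1, chr10:69352863-69353162, minus strand: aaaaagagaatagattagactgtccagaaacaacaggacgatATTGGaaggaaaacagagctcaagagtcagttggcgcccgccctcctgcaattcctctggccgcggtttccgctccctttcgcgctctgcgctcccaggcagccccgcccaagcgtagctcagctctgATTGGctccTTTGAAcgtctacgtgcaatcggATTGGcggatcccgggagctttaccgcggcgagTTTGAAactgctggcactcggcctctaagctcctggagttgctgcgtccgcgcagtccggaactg
Cdc20, chr4:118437294-118437593, minus strand: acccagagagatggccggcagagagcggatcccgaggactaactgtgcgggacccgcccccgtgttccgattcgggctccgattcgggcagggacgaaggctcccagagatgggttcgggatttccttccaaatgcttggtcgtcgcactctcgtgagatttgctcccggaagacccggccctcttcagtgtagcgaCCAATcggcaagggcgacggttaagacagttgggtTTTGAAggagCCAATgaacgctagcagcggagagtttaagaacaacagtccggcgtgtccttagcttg
Mad2l1, chr6:66534971-66535270, plus strand: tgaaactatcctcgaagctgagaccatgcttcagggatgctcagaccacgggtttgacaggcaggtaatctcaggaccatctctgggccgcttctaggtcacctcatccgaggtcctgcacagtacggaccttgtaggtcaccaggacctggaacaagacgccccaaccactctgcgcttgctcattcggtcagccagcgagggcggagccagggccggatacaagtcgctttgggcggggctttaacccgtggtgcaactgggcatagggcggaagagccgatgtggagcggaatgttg
Mcm5, chr8:75109259-75109558, plus strand: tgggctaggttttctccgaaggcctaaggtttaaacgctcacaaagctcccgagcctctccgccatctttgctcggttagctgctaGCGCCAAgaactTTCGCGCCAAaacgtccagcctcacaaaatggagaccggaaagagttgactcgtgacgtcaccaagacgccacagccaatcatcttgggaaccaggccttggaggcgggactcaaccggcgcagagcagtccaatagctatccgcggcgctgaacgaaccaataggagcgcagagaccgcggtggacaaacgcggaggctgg
Rrm1, chr7:102441445-102441744, plus strand: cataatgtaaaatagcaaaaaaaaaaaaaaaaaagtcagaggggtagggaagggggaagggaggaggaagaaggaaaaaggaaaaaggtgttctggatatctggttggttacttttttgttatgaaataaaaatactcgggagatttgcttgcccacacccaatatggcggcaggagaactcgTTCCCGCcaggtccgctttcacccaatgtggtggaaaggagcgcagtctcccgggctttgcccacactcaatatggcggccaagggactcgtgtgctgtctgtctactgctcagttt

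A CHR match stood in 78.6% of mitosis windows (22 of 28), against 15% of replication windows (3 of 20) and 19.2% of all 32851 windows. A CCAAT box stood in 75% of mitosis windows, 60% of replication windows and 37.4% of all windows. The 2 motifs stood together in 67.9% of mitosis windows, 10% of replication windows and 7.52% of all windows. An E2F core stood in 70% of replication windows (14 of 20), 14.3% of mitosis windows and 9.57% of all windows. The Top2a window held 4 CHR and 6 CCAAT matches, that of Cdk1 held 2 and 3, that of Cdc20 held 1 and 2, and that of Mad2l1 held neither. The Mcm5 window held 3 E2F cores, and that of Rrm1 held 1. These matches are letters in a window and were not tested as binding sites.

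The sort could be read from marker genes. Epcam, an epithelial surface protein, had 815 to 962 CPM (read counts scaled to library size, with TMM factors) in mTEC libraries and 488 to 619 CPM in cTEC libraries. Other epithelial markers were mixed. Of 9, with Epcam, 1 was called higher and 4 lower in mTEC in Cre, and 2 higher and 4 lower in control. All tested genes had 25.1% higher and 24.5% lower in Cre, and 29.3% and 30% in control. Aire, the medullary regulator of tissue antigens, had 489.5 to 935 CPM in mTEC and 2.91 to 10.9 CPM in cTEC, and Psmb11, the cortical proteasome subunit, had 12.8 to 35.7 CPM in mTEC and 253.6 to 995 CPM in cTEC. The targeted receptor gene Nr1h2 (LXRbeta) fell in both cell types, with 70.5 to 96.2 CPM in Cre mTEC against 109.7 to 132 CPM in control mTEC, and 102 to 123.5 CPM in Cre cTEC against 158 to 192 CPM in control cTEC. Nr1h3 (LXRalpha) had 5.84 to 10.7 CPM in all libraries, and gene totals cannot show whether a floxed part was cut out. Total counts were 4804697 to 11159013 a library, so 1 count was worth 0.0898 to 0.194 CPM after TMM scaling. The 50 genes together took 0.161% to 0.208% of the counts in mTEC and 0.0805% to 0.0973% in cTEC.

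Mitosis genes were higher in mTEC than in cTEC in both genotypes. With edgeR's quasi-likelihood test and Benjamini-Hochberg adjustment over all genes tested, all 31 rose in Cre mTEC over Cre cTEC, where 25.1% of all tested genes rose and 49.6% were called in either direction at an adjusted p under 0.05. In control cells 30 of 31 rose, where 29.3% of all tested genes rose and 59.2% were called in either direction. The median log2 fold change (mTEC over cTEC) of the 31 genes was 1.42 in Cre and 1.33 in control, or 2.67-fold and 2.52-fold, while that of all tested genes was -0.02 and -0.05. The same 30 genes rose in both genotypes, and for all 31 genes every mTEC library was above every cTEC library within each genotype, as was so for 27.3% of all tested genes in Cre and 33.7% in control. In bulk libraries, fewer dividing cells and less RNA of a gene per cell cannot be told apart.

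**Figure D1:**
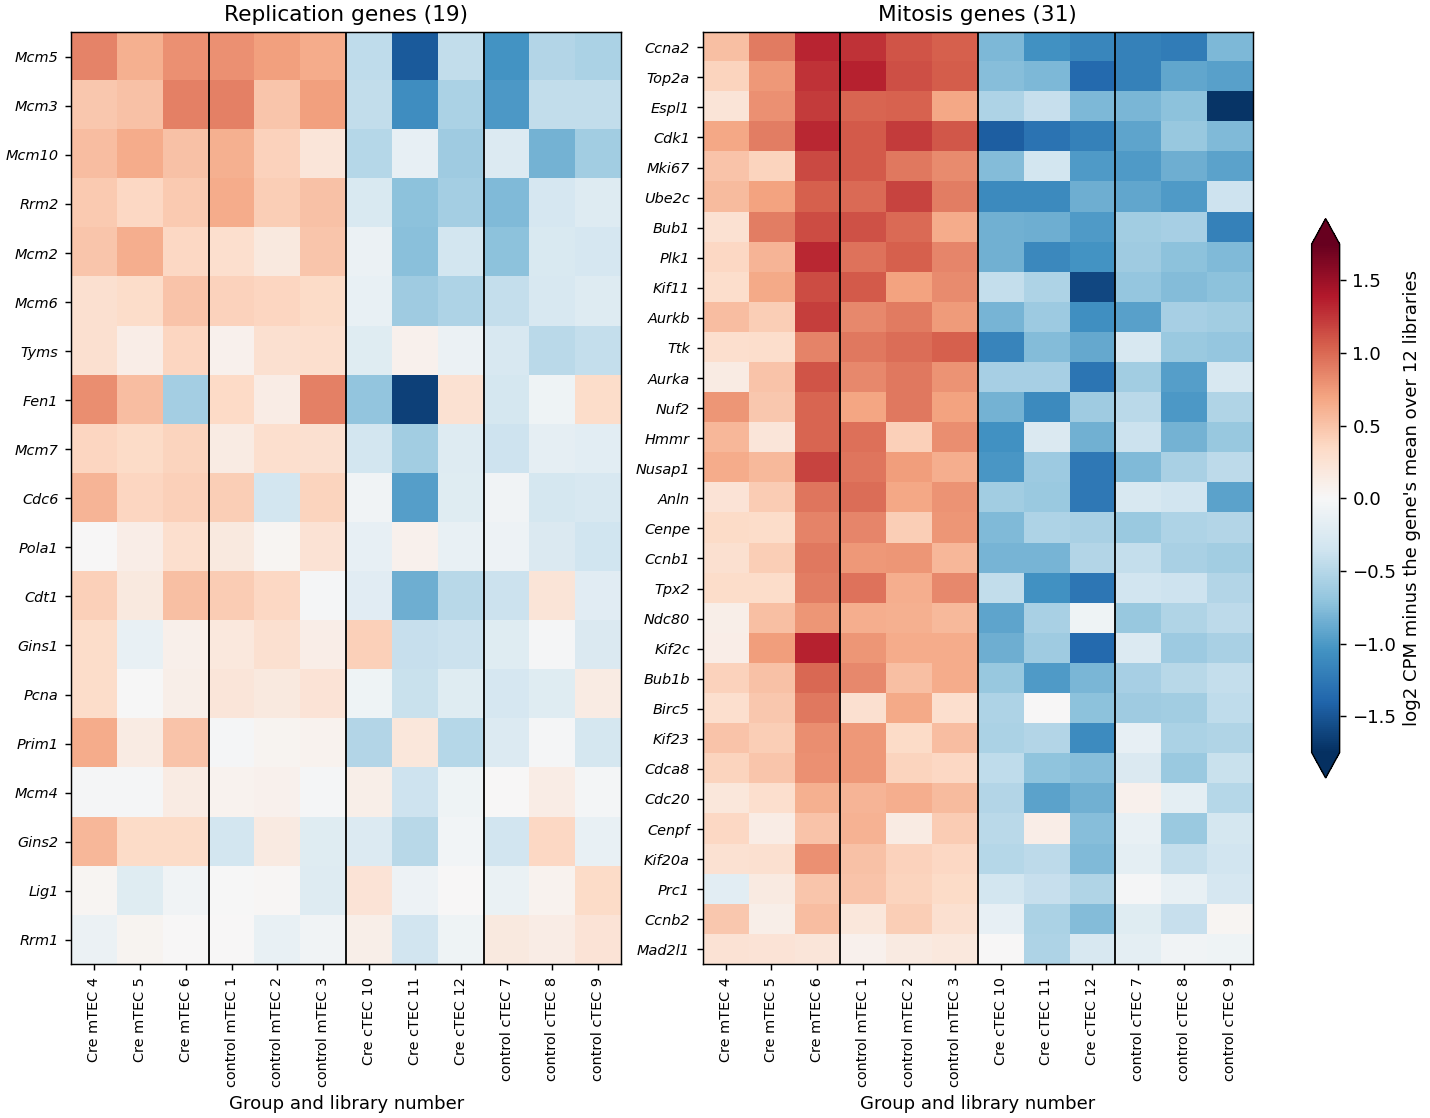
Level of each of the 19 replication genes (left) and 31 mitosis genes (right) in each of the 12 libraries, as log2 CPM minus the gene's mean over the 12 libraries (red above, blue below); genes run down in the order of their log2 fold change in control mTEC over control cTEC. Mitosis genes were above their mean in nearly all mTEC libraries and below it in nearly all cTEC libraries, with library 6 the highest of the Cre mTEC libraries in 30 of 31, and replication genes split less evenly.

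Among the cyclins and kinases of mitotic entry, all 6 rose in both genotypes, where 25.1% (Cre) and 29.3% (control) of all tested genes rose. Ccna2, the cyclin of S phase and G2, had 37.4, 48.9 and 65.8 CPM in Cre mTEC, against 15.0, 12.2 and 11.6 CPM in Cre cTEC. In control mTEC it had 62.6, 55.9 and 54.0 CPM, against 11.2, 10.9 and 14.8 CPM in control cTEC. Every mTEC library lay well above every cTEC library, and the log2 fold change was 1.96 ± 0.18 (SE) in Cre and 2.21 ± 0.18 in control (adjusted p = 3.67e-08 and 5.18e-09). Cdk1, the kinase that drives entry into mitosis, had 32.0, 37.2 and 49.9 CPM in Cre mTEC, against 7.15, 7.97 and 8.63 CPM in Cre cTEC. It had 42.0, 46.7 and 42.5 CPM in control mTEC, against 10.4, 12.4 and 11.6 CPM in control cTEC. Its log2 fold change of 2.33 ± 0.17 in Cre was the largest of the 31 there (adjusted p = 9.02e-10), and in control it was 1.93 ± 0.16 (adjusted p = 4.48e-09). Plk1, a kinase of spindle and chromosome events, and Aurka, the centrosome kinase, had log2 fold changes of 1.85 and 1.45 in Cre and 1.69 and 1.47 in control. The B-type cyclin genes that partner Cdk1 rose by 1.32 (Ccnb1) and 0.84 (Ccnb2) in Cre and by 1.27 and 0.48 in control on the log2 scale. Ccnb2 in control did not pass once library 2 or 8 was dropped (adjusted p at most 0.0828).

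The chromosome genes Top2a and Mki67 rose in both genotypes. Top2a, the topoisomerase that untangles sister chromatids, had 65.9, 85.4 and 121 CPM in Cre mTEC, against 29.9, 28.9 and 19.4 CPM in Cre cTEC. In control mTEC it had 128.5, 110.6 and 104.9 CPM, against 22.1, 26.6 and 25.8 CPM in control cTEC. The groups were well apart, with the widest spread in Cre mTEC, and the log2 fold change was 1.80 ± 0.19 in Cre and 2.21 ± 0.19 in control (adjusted p = 1.81e-07 and 8.38e-09). Mki67, which codes for the proliferation antigen Ki-67, averaged 54.8 ± 16.9 CPM in Cre mTEC and 20.8 ± 5.09 CPM in Cre cTEC (SD, n = 3 each). In control cells it averaged 63.8 ± 5.62 CPM in mTEC and 17.2 ± 0.874 CPM in cTEC. The log2 fold change of Mki67 was 1.42 in Cre and 1.89 in control.

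Of 7 checkpoint and anaphase genes, 7 rose in Cre and 6 in control, where 25.1% and 29.3% of all tested genes rose. The exception was Mad2l1, whose product Mad2 holds back the anaphase-promoting complex until chromosomes attach. It had 39.7, 39.1 and 38.5 CPM in Cre mTEC, against 33.3, 22.7 and 27.2 CPM in Cre cTEC. It had 35.0, 36.9 and 37.6 CPM in control mTEC, against 29.4, 31.8 and 31.4 CPM in control cTEC. The libraries did not overlap in either genotype, but the difference was small, at a log2 fold change of 0.48 ± 0.13 in Cre (adjusted p = 0.00379) and 0.24 ± 0.13 in control (adjusted p = 0.106, 95% interval -0.02 to 0.50). Espl1, the separase that cuts cohesin at anaphase, had 1.42 in Cre and 2.02 in control, and Ube2c, the ubiquitin-conjugating enzyme of the anaphase-promoting complex, had 1.85 and 1.78 on the same log2 scale. The checkpoint kinase genes Bub1 and Ttk and the checkpoint protein gene Bub1b had log2 fold changes of 1.76, 1.54 and 1.49 in Cre and 1.76, 1.56 and 1.18 in control.

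All 7 genes of the kinetochore and the chromosomal passenger complex rose in both genotypes, where 25.1% (Cre) and 29.3% (control) of all tested genes rose. Their median log2 fold change was 1.19 in Cre and 1.20 in control. Aurkb, the passenger complex kinase, had the largest value in control, 1.56, and 1.65 in Cre. Nuf2, a subunit of the NDC80 complex that binds microtubules, also had 1.65 in Cre and had 1.46 in control. The smallest values of this set were those of Cenpf, a large kinetochore protein gene, at 0.70 in Cre and 0.76 in control. All 9 spindle and cytokinesis genes rose as well, with medians of 1.40 in Cre and 1.23 in control. The largest in control was Kif11, the motor that pushes spindle poles apart, at 1.62, and the largest in Cre was Nusap1, a microtubule-bundling protein gene, at 1.83. Prc1, the bundler of the central spindle, had the smallest, 0.60 in Cre and 0.56 in control.

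**Figure D2:**
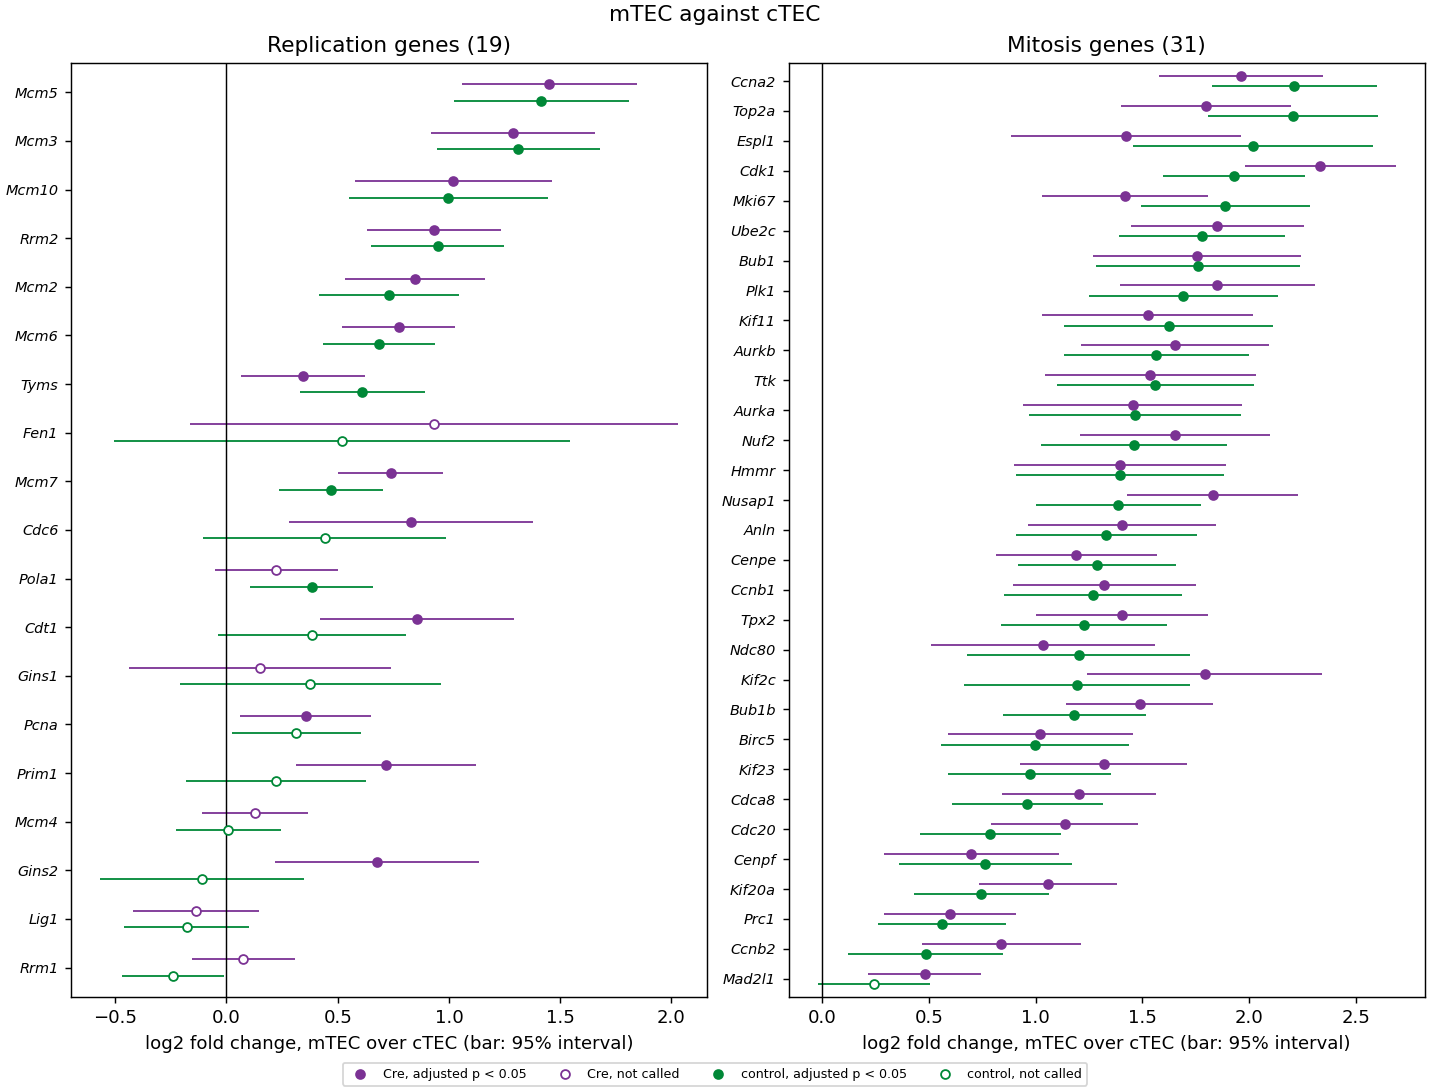
Log2 fold change of mTEC over cTEC for each replication gene (left) and mitosis gene (right), in Cre (purple) and control (green), with 95% intervals; filled points passed an adjusted p under 0.05. All 31 mitosis genes in Cre and 30 in control were filled, and 13 and 9 of the 19 replication genes.

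Replication genes were higher in mTEC in part. In Cre cells 13 of 19 rose in mTEC over cTEC and in control cells 9 of 19 rose, none fell, and 8 rose in both genotypes. Among all tested genes, 25.1% rose in Cre and 29.3% in control. Called in either direction were 49.6% in Cre and 59.2% in control. Their median log2 fold change was 0.74 in Cre and 0.44 in control, or 1.67-fold and 1.36-fold. For 12 genes every mTEC library was above every cTEC library in Cre, as was so for 27.3% of all tested genes. The same held for 12 genes in control, and there for 33.7% of all tested genes. In control 1 further gene, Rrm1, lay wholly below, as did 35.6% of all tested genes. Over all 12 libraries, every mTEC library was above every cTEC library for 8 of 19 replication genes and for 30 of 31 mitosis genes, as was so for 21.1% of all tested genes.

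Of the 6 subunits of the MCM helicase, which unwinds DNA at the fork, 5 rose in each genotype and Mcm4 did not. Among all tested genes, 25.1% rose in Cre and 29.3% in control. Mcm5 had 70.6, 59.5 and 67.9 CPM in Cre mTEC, against 28.5, 13.8 and 28.7 CPM in Cre cTEC. It had 67.8, 63.8 and 60.8 CPM in control mTEC, against 18.7, 27.1 and 26.3 CPM in control cTEC. All mTEC libraries lay above all cTEC libraries, and the log2 fold change was 1.45 ± 0.19 in Cre and 1.41 ± 0.19 in control (adjusted p = 2.64e-06 and 2.89e-06). Mcm4, a subunit of the same hexamer, had 89.5, 89.9 and 101 CPM in Cre mTEC, against 97.7, 71.1 and 86.6 CPM in Cre cTEC. It had 95.5, 96.4 and 90.0 CPM in control mTEC, against 91.5, 100.1 and 89.1 CPM in control cTEC. These ranges overlapped, and the log2 fold change of Mcm4 was 0.13 in Cre (95% interval -0.11 to 0.37) and 0.01 in control (-0.23 to 0.24), so a change like that of Mcm5 lay outside both intervals. Mcm3, Mcm6, Mcm2 and Mcm7 lay between, at 1.29, 0.77, 0.85 and 0.74 in Cre and 1.31, 0.68, 0.73 and 0.47 in control on the log2 scale.

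Among 5 genes of origin licensing and firing, 4 rose in Cre and 1, Mcm10, in control, where 25.1% and 29.3% of all tested genes rose. At 1 of 5, the share in control was not above that of all tested genes. Mcm10, which helps to start the helicase, had a log2 fold change of 1.02 in Cre and 1.00 in control. Cdc6 and Cdt1, the loaders of the MCM complex, had 0.83 and 0.86 in Cre (adjusted p = 0.0126 and 0.00197) and 0.44 and 0.38 in control (0.152 and 0.109). Gins2, a subunit of the GINS complex of the active helicase, had 13.2, 11.1 and 11.2 CPM in Cre mTEC, against 7.38, 6.22 and 8.48 CPM in Cre cTEC. It had 7.01, 9.85 and 7.58 CPM in control mTEC, against 6.92, 11.4 and 7.99 CPM in control cTEC. The cell types were apart in Cre and overlapped in control, with log2 fold changes of 0.68 (adjusted p = 0.0152, and 0.0551 without library 4) and -0.11 (adjusted p = 0.686). The difference between these 2 values was not past the threshold (log2 -0.78 ± 0.31 as the genotype effect in cTEC minus that in mTEC, adjusted p = 0.192). Gins1, another GINS subunit, passed in neither genotype.

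Of 5 genes of DNA synthesis and joining, 2 rose in Cre and 1 in control, where 25.1% and 29.3% of all tested genes rose. At 1 of 5, the share in control was not above that of all tested genes. Prim1, the primase subunit, had a log2 fold change of 0.72 in Cre (adjusted p = 0.00440) and 0.22 in control (adjusted p = 0.334). Pcna, the sliding clamp, had 0.36 in Cre (adjusted p = 0.0435) and 0.31 in control (adjusted p = 0.0590), and its call in Cre was lost under 9 of 19 other settings, among them without library 1, 2, 3, 4, 6, 11 or 12 (adjusted p up to 0.155). Pola1, the catalytic subunit of the priming polymerase, had 0.22 in Cre and 0.38 in control, where it passed with all libraries and not without library 3 or 9 (adjusted p up to 0.0804). Lig1, the ligase that joins Okazaki fragments, had -0.14 and -0.18 and passed in neither. Fen1, the flap nuclease, had only 2 to 27 counts a library and wide intervals (log2 -0.16 to 2.03 in Cre and -0.50 to 1.54 in control).

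The subunits of ribonucleotide reductase, which makes deoxynucleotides, gave different values. Rrm2, the small subunit made in S phase, averaged 44.4 ± 1.57 CPM in Cre mTEC and 23.0 ± 3.78 CPM in Cre cTEC, and 47.8 ± 3.81 CPM in control mTEC and 24.7 ± 4.81 CPM in control cTEC (SD, n = 3 each). It rose in both genotypes, at log2 0.93 and 0.95. Rrm1, the large subunit, had 89.3, 99.2 and 96.7 CPM in Cre mTEC, against 103, 75.8 and 90.7 CPM in Cre cTEC. It had 96.5, 87.5 and 91.9 CPM in control mTEC, against 107.9, 104.8 and 113 CPM in control cTEC. Rrm1 overlapped in Cre (log2 0.08, adjusted p = 0.604) and lay lower in every control mTEC library without passing the threshold (log2 -0.24, adjusted p = 0.0659). Tyms, the thymidylate synthase gene, rose in both genotypes, by 0.34 in Cre and 0.61 in control, and the call in Cre was lost under 8 of 19 other settings, among them without library 2, 3, 4, 6, 10 or 12 (adjusted p up to 0.155).

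Set per kilobase of the longest annotated transcript, the median of replication genes lay above that of mitosis genes in all 4 groups. The ranges of the 2 lists overlapped, as in control mTEC (1.1 to 31.1 and 2.49 to 22.0 CPM per kilobase). The median over 19 replication genes was 11.2 CPM per kilobase in Cre mTEC, 11.2 in control mTEC, 6.85 in Cre cTEC and 7.10 in control cTEC. The median over 31 mitosis genes was 7.00, 7.30, 2.81 and 3.05 CPM per kilobase in the same groups. Mcm6 was the highest replication gene in mTEC, at 31.0 CPM per kilobase in Cre and 31.1 in control, and Mcm4 in cTEC, at 23.7 and 26.1. Top2a was the highest mitosis gene in mTEC, at 17.4 and 22.0 CPM per kilobase, and Ccnb2 (8.12, Cre) and Cdc20 (11.1, control) were the highest in cTEC. By promoter motif, the 21 mitosis genes with a CHR match had a median log2 fold change of 1.42 in Cre and 1.39 in control, and the 6 without one had 1.26 and 1.28. The 20 with a CCAAT box had 1.42 and 1.43, and the 7 without one had 1.40 and 1.20. The 12 replication genes with an E2F core had 0.80 in Cre and 0.46 in control, and the 4 without one had 0.60 and 0.67, so the order turned between the genotypes. These medians are a description with no test.

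Markers of other cells moved with cell type. Of 15 matched leukocyte markers 10 rose and 1 fell in mTEC over cTEC, in Cre as in control cells. All tested genes had 25.1% higher and 24.5% lower in Cre, and 29.3% and 30% in control. The summed level of the leukocyte markers was 621 to 881 CPM in Cre mTEC, 822 to 998 CPM in control mTEC, 115 to 133.5 CPM in Cre cTEC and 126 to 192 CPM in control cTEC. Laptm5, Lyz2 and Cd52 held most of that sum in mTEC, while Ptprc, the pan-leukocyte gene CD45, had 12.5 to 17.7 CPM in mTEC and 17.1 to 34.3 CPM in cTEC and fell (log2 -0.93 in control, adjusted p = 0.00039). Thymocyte markers, of developing T cells that include dividing stages, lay mostly lower in mTEC. Of 19 tested, 7 fell and 1, Bcl11b, rose in Cre mTEC over Cre cTEC (log2 0.52, adjusted p = 0.00134), where 24.5% of all tested genes fell, and 12 fell and none rose in control mTEC over control cTEC, where 30% of all tested genes fell. The 20 of them summed to 249 to 322 CPM in Cre mTEC, 239 to 281 CPM in control mTEC, 338.5 to 389.5 CPM in Cre cTEC and 297 to 475 CPM in control cTEC. Cd3e had 6.02 to 13.2 CPM in mTEC and 10.4 to 15.3 CPM in cTEC, Rag1 had 9.85 to 16.2 and 14.5 to 34.4 CPM, and no marker of either list was at 0 throughout. The part of these cells in the mitosis result was not tested.

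Few cell cycle genes differed by genotype. In cTEC 1 of the 50 genes passed with edgeR, Cdc20, where 9.01% of all tested genes were called (5.62% higher and 3.38% lower), and in mTEC none passed, where 2.07% were called (0.585% higher and 1.49% lower). At 1 of 31, the share of mitosis genes lower in Cre cTEC was near that of all tested genes. Averaged over both cell types Cdc20 alone passed again, where 7.21% of all tested genes were called, 3.6% higher and 3.61% lower. For the difference of the genotype effects between cTEC and mTEC none of the 50 passed with edgeR, where 4.01% were called (2.92% higher and 1.08% lower in cTEC), and DESeq2 and limma voom also gave 0. At an unadjusted p under 0.05 that difference held for 1 replication gene and 0 mitosis genes, against 16.3% of all tested genes.

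**Figure D3:**
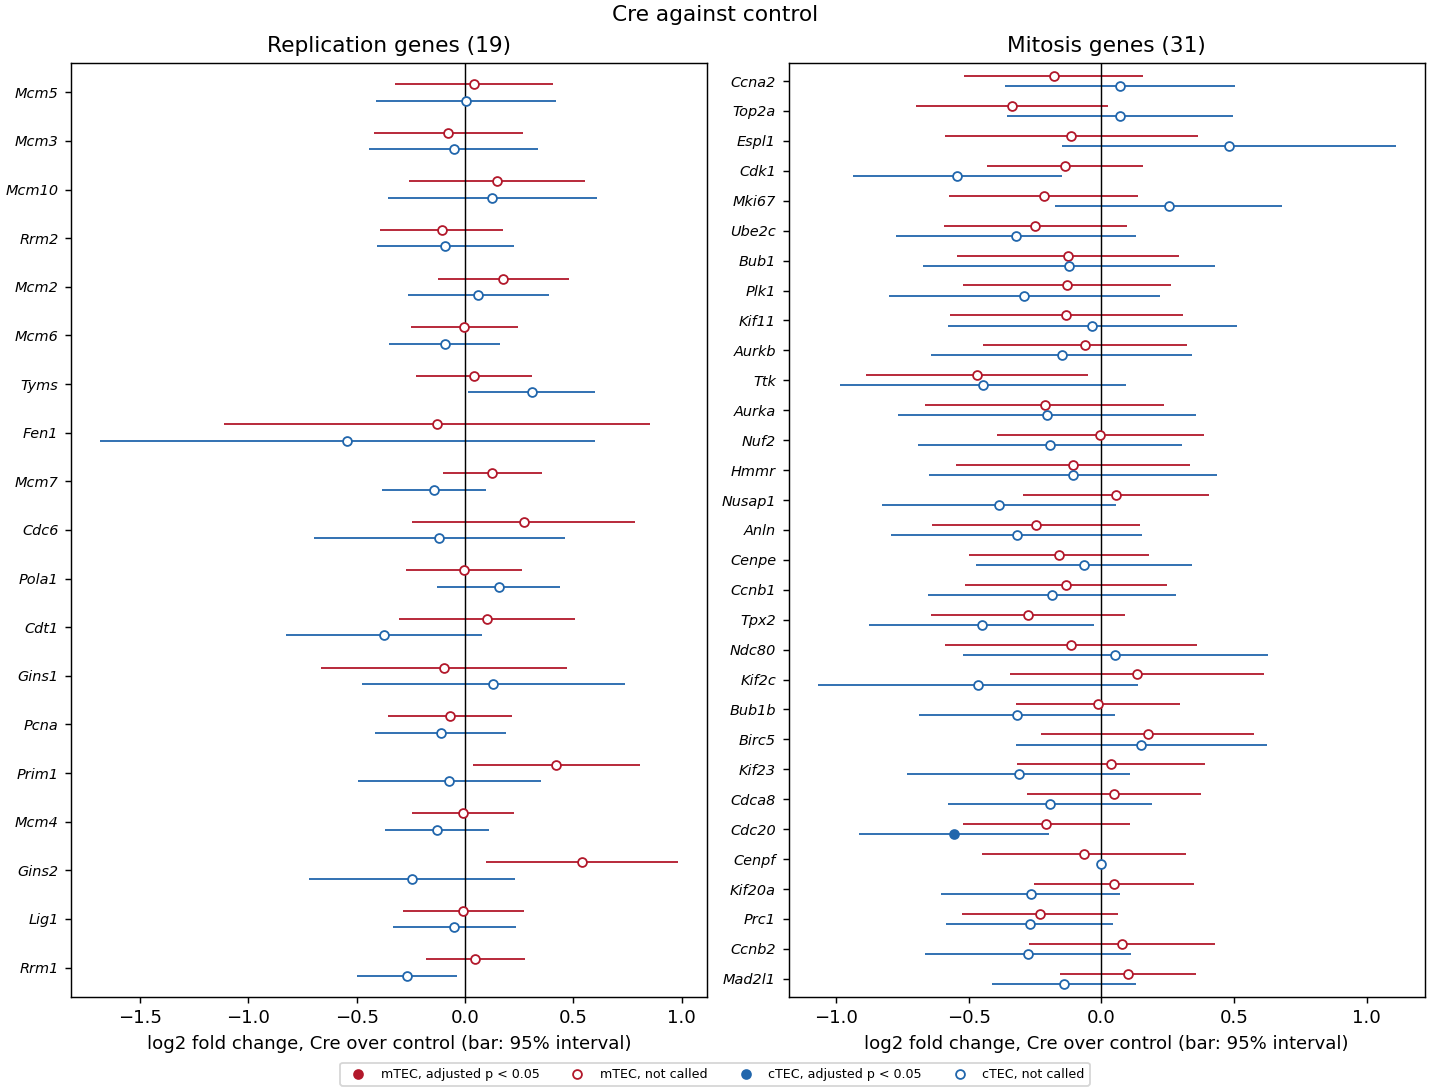
Log2 fold change of Cre over control for each replication gene (left) and mitosis gene (right), in mTEC (red) and cTEC (blue), with 95% intervals except for Cenpf in cTEC, whose fold change of 0 gives none; filled points passed an adjusted p under 0.05. Only Cdc20 in cTEC was filled, and 25 of 31 mitosis genes in cTEC and 23 of 31 in mTEC lay left of 0.

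Cdc20, the activator of the anaphase-promoting complex, had 15.8, 11.7 and 12.4 CPM in Cre cTEC, against 23.7, 20.0 and 15.8 CPM in control cTEC. The highest Cre library lay just below the lowest control library. The log2 fold change was -0.55 ± 0.17 (SE, 95% interval -0.91 to -0.20, adjusted p = 0.0492). In mTEC it had 25.9, 27.7 and 34.9 CPM in Cre, against 34.1, 35.1 and 33.1 CPM in control, which overlapped (log2 -0.21, adjusted p = 0.591). The call in cTEC was lost under 13 of 19 other settings, among them DESeq2 and the fits without library 1, 2, 3, 4, 5, 7, 8, 11 or 12, with log2 fold changes of -0.71 to -0.41 and adjusted p up to 0.250. The averaged effect was -0.38 ± 0.11 (adjusted p = 0.0489), which failed in the same 9 fits with a library dropped (adjusted p at most 0.155).

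The other mitosis genes in cTEC lay mostly below 0 without passing. The median log2 fold change of the 31 was -0.19, against -0.02 for all tested genes, and 25 were negative. An unadjusted p under 0.05 was reached by 3 of the 31 with edgeR, a share below the 19.9% of all tested genes. For 7 of 31 (Cdc20, Cdk1, Bub1b, Plk1, Kif20a, Prc1 and Ttk) every Cre library lay below every control library, as was so for 10.1% of all tested genes. Cdk1 had 7.15, 7.97 and 8.63 CPM in Cre cTEC, against 10.4, 12.4 and 11.6 CPM in control cTEC, with a log2 fold change of -0.54 ± 0.19 (adjusted p = 0.0843). Tpx2, which activates Aurora A on the spindle, had 22.4, 14.4 and 12.4 CPM in Cre cTEC, against 23.9, 23.5 and 21.1 CPM in control cTEC (log2 -0.45, adjusted p = 0.212). The summed level of the 31 genes was 302 to 372 CPM in Cre cTEC, against 383 to 404 CPM in control cTEC, so the groups did not overlap. Espl1 and Mki67 had the highest values of the list, at 0.48 (95% interval -0.15 to 1.11) and 0.25 (-0.17 to 0.68), and 28 of the 30 intervals that could be computed lay within a 2-fold change in either direction.

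Markers of the epithelial types moved with genotype in the same cTEC libraries. The 12 mTEC markers summed to 1324 to 1545 CPM in Cre cTEC, against 2360 to 2659 CPM in control cTEC, without overlap. Of 11 tested, Krt14 and Krt5 fell, Fezf2, Cd40 and Tnfrsf11a rose, and the median log2 fold change was -0.76. Of 10 cTEC markers 7 rose and none fell, with a median of 0.84. Their sum was 9845 to 21130 CPM in Cre cTEC, against 9017 to 10810 CPM in control cTEC. Among all tested genes, 5.62% rose and 3.38% fell in Cre cTEC. All 15 tested leukocyte markers had negative values and none passed (2 had an unadjusted p under 0.05, where 19.9% of all tested genes did). Their sums overlapped, at 115 to 133.5 CPM in Cre cTEC, against 126 to 192 CPM in control cTEC. The part of these cells in the lower mitosis values of Cre cTEC was not tested.

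Replication genes in cTEC gave no call with edgeR, DESeq2 or limma voom, and 2 of 19 had an unadjusted p under 0.05, where 19.9% of all tested genes did. These were Rrm1, at 103, 75.8 and 90.7 CPM in Cre cTEC against 107.9, 104.8 and 113 CPM in control cTEC (log2 -0.27, adjusted p = 0.163), and Tyms, at 18.6, 22.7 and 20.2 CPM against 17.8, 15.5 and 16.1 CPM (log2 0.31, adjusted p = 0.222). Neither pair of groups overlapped, and the 2 enzymes of nucleotide supply lay on opposite sides of 0. That made 1 of 19 wholly above and 1 wholly below, as were 10.2% and 10.1% of all tested genes. The list's median was -0.09. All intervals but that of Fen1 lay within a 2-fold change.

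In mTEC none of the 50 genes passed with edgeR or DESeq2, and limma voom called 1, Ttk. Of 31 mitosis genes 23 were negative with a median of -0.13, and 1 had an unadjusted p under 0.05, where 14.6% of all tested genes did. That gene was Ttk, the checkpoint kinase Mps1, at 8.37, 8.43 and 12.7 CPM in Cre mTEC, against 13.1, 13.6 and 14.2 CPM in control mTEC (log2 -0.47, adjusted p = 0.269). Among 19 replication genes the median was 0.04, and Gins2 and Prim1 had an unadjusted p under 0.05 (log2 0.54 and 0.42, adjusted p = 0.216 and 0.281). Every Cre mTEC library lay above every control mTEC library for 3 of 19, Gins2, Prim1 and Mcm7, as was so for 11.6% of all tested genes. All 31 mitosis intervals and 18 of 19 replication intervals lay within a 2-fold change.

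The Cre mTEC libraries were the least alike in mitosis genes. Library 6 was the highest of its group for 30 of 31 mitosis genes and library 4 the lowest for 21, and the summed level was 737, 806 and 1126 CPM in libraries 4, 5 and 6, against 1044, 952 and 932 CPM in control mTEC. Replication genes did not share that order, with sums of 812, 791.5 and 853 CPM in Cre mTEC, against 818.5, 780.2 and 792 CPM in control mTEC. Aire had 489.5, 566 and 867 CPM in libraries 4, 5 and 6, against 795, 862 and 935 CPM in libraries 1, 2 and 3 of control mTEC. The summed leukocyte markers had 625, 621 and 881 CPM in Cre mTEC, against 822, 877 and 998 CPM in control mTEC. Both were highest in library 6 within Cre mTEC, where the mitosis sum was highest, and highest in library 3 within control mTEC, where the mitosis sum was lowest. All 12 mTEC markers, Aire among them, summed to 7320, 6547 and 6376 CPM in Cre mTEC, lowest in library 6, against 7769, 7558 and 7452 CPM in control mTEC. The part of Aire-expressing cells or leukocytes in this spread was not tested. Without library 6, Top2a was called lower in Cre mTEC (log2 -0.61, adjusted p = 0.0420), and 5 mitosis genes were called lower in the averaged comparison (Cdc20, Cdk1, Prc1, Tpx2 and Ttk), against 1 with all libraries. In Cre cTEC library 12 was the lowest for 19 of 31 mitosis genes and library 11 for 15 of 19 replication genes.

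**Figure D4:**
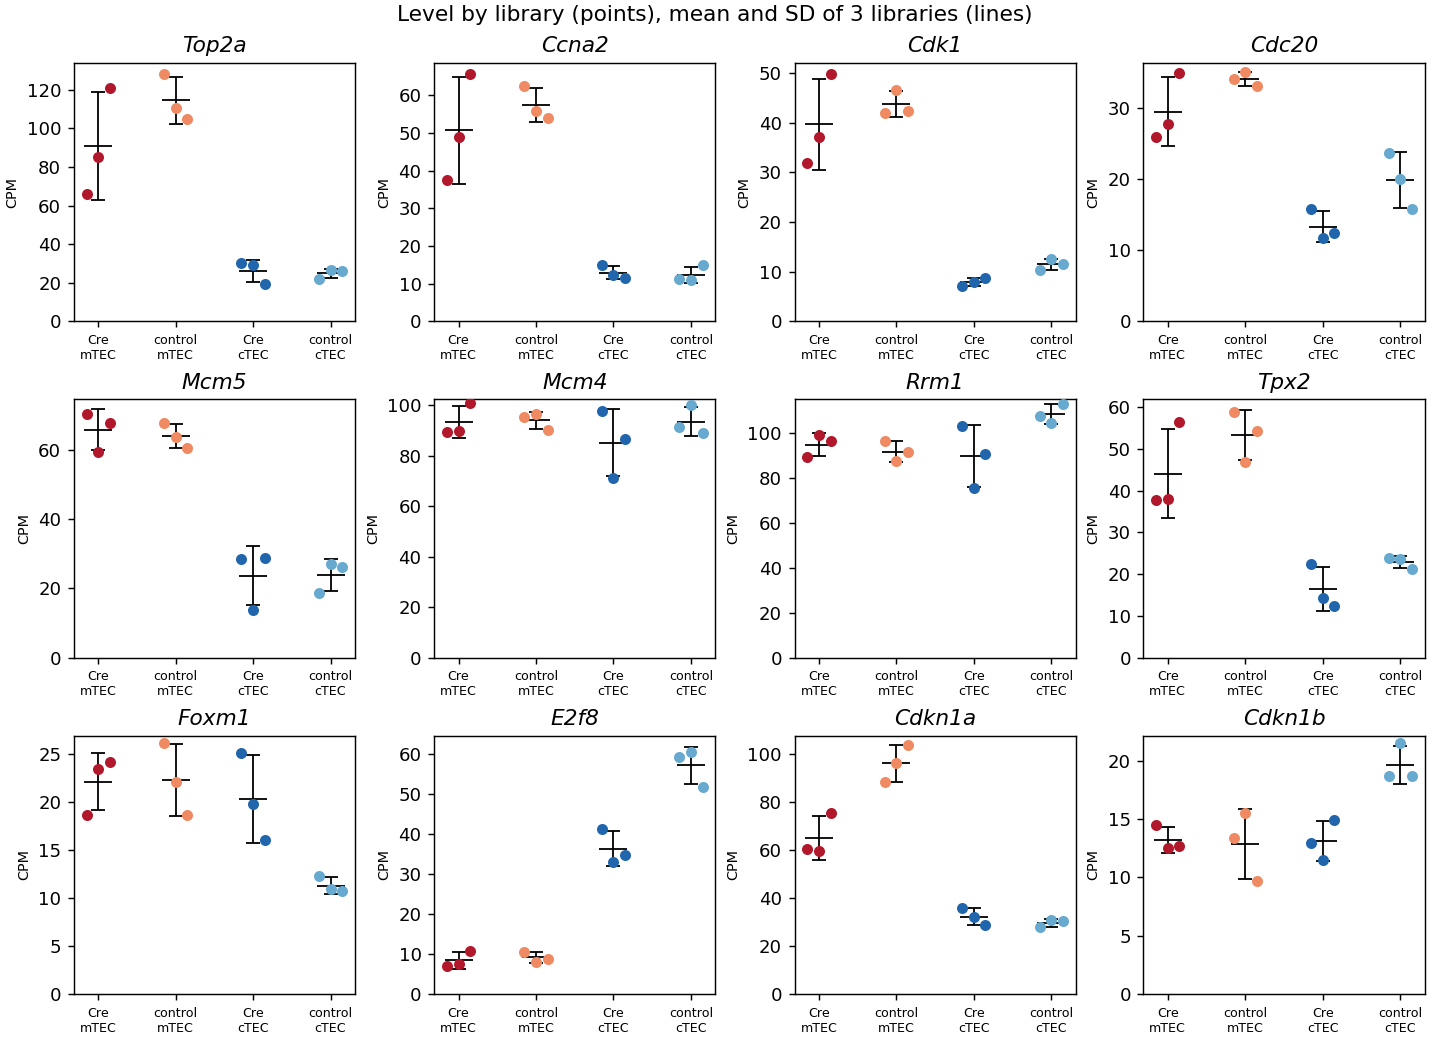
CPM of 12 genes in each library (points) with the mean and SD of 3 libraries (lines), in the order Cre mTEC, control mTEC, Cre cTEC and control cTEC; each axis starts at 0. Top2a, Ccna2, Cdk1 and Mcm5 separated mTEC from cTEC and Mcm4 did not. Rrm1 lay lower in every mTEC library in control cells only, without passing the threshold. By genotype, Foxm1, E2f8 and Cdkn1b were called in cTEC and Cdkn1a in mTEC. Foxm1 and E2f8 kept these calls in all 19 other settings, while Cdkn1b lost its call in 12 and Cdkn1a in 4.

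Of 19 E2F, RB and MuvB regulators 1 rose and 1 fell in Cre cTEC, where 5.62% of all tested genes rose and 3.38% fell. In mTEC none passed with edgeR (2 had an unadjusted p under 0.05, where 14.6% of all tested genes did). Foxm1, the transcription factor of G2 and M phase genes, had 25.2, 19.8 and 16.1 CPM in Cre cTEC, against 12.3, 10.9 and 10.7 CPM in control cTEC. It rose without overlap (log2 0.86 ± 0.19, adjusted p = 0.00493), while 25 of the 31 mitosis genes had negative values there, and kept its call in all 19 other settings. In mTEC it had 18.6, 23.4 and 24.2 CPM in Cre, against 26.2, 22.1 and 18.6 CPM in control, which overlapped (log2 -0.02), and the difference between cell types was just short of the threshold (0.88, adjusted p = 0.0564). Over cell types Foxm1 had log2 0.11 in Cre mTEC over Cre cTEC (adjusted p = 0.622), and it rose in control mTEC over control cTEC (0.99). E2f8, a repressor of E2F targets, had 41.2, 33.0 and 34.7 CPM in Cre cTEC, against 59.1, 60.4 and 51.8 CPM in control cTEC. It fell without overlap (log2 -0.65 ± 0.14, adjusted p = 0.00593), also in all 19 other settings. In mTEC E2f8 was far lower, at 7.00, 7.38 and 10.7 CPM in Cre and 10.6, 7.99 and 8.76 CPM in control, a log2 fold change over cTEC of -2.11 and -2.64.

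Of 5 tested inhibitors of cyclin-dependent kinases 1 fell in Cre mTEC and 1 in Cre cTEC, where 1.49% and 3.38% of all tested genes fell. Cdkn1a, the p53 target p21, had 60.4, 59.5 and 75.6 CPM in Cre mTEC, against 88.5, 96.3 and 103.9 CPM in control mTEC. It fell without overlap (log2 -0.56 ± 0.12, adjusted p = 0.0160), but did not pass once library 2, 3, 4 or 5 was dropped (adjusted p at most 0.131). In cTEC Cdkn1a had 36.0, 32.3 and 28.7 CPM in Cre, against 27.8, 30.8 and 30.3 CPM in control (log2 0.13, adjusted p = 0.702). The genotype effect in cTEC minus that in mTEC was log2 0.69 ± 0.17 (adjusted p = 0.0305), which did not pass once library 2, 3, 5, 7, 9 or 10 was dropped (adjusted p at most 0.0936). Cdkn1b, or p27, had 13.0, 11.5 and 14.9 CPM in Cre cTEC, against 18.7, 21.5 and 18.7 CPM in control cTEC (log2 -0.57, adjusted p = 0.0460), and this call was lost under 12 of 19 other settings, among them without library 1, 4, 5, 6, 7, 8, 9, 10 or 11 (adjusted p up to 0.162). Cdkn2b, or p15, passed only as the average over cell types (log2 -0.57, adjusted p = 0.0489, lost under 11 of 18 other settings, among them without any of libraries 1, 2, 3, 4, 5, 7, 8, 9, 10 and 11). Cdkn1c, or p57, had log2 -0.32 in mTEC and -0.57 in cTEC and did not pass (adjusted p = 0.413 and 0.112).

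Across cell types, of the 5 tested inhibitor genes 3 rose and 1 fell in control mTEC over control cTEC, and 3 rose and none fell in Cre. Of all tested genes 25.1% rose and 24.5% fell in Cre, and 29.3% rose and 30% fell in control. Cdkn2b, Cdkn1c and Cdkn1a rose, at log2 3.17, 2.79 and 1.01 in Cre and 3.24, 2.53 and 1.70 in control, while Cdkn1b fell in control (-0.60). Of 11 G1/S cyclin and kinase genes, 4 rose and 3 fell in Cre, and 5 rose and 3 fell in control, where 49.6% and 59.2% of all tested genes were called in either direction. The E-type cyclin genes Ccne1 and Ccne2, which drive S phase entry, rose by 1.45 and 1.37 in Cre and by 1.76 and 1.38 in control, Ccnd1 rose by 1.26 and 0.67, and the kinase-activating pair Ccnh and Cdk7 fell by 0.84 and 0.68 in Cre and by 1.07 and 0.80 in control.

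Across cell types, 5 of the 19 E2F, RB and MuvB regulators rose and 7 fell in Cre, and 8 rose and 7 fell in control. The shares of all tested genes were 25.1% higher and 24.5% lower in Cre, and 29.3% higher and 30% lower in control. At 5 of 19, the share of regulators rising in Cre was near that of all tested genes. The activator E2f1 averaged 10.1 ± 2.13 CPM in Cre mTEC and 3.37 ± 0.654 CPM in Cre cTEC, and 10.2 ± 1.61 CPM in control mTEC and 3.40 ± 0.736 CPM in control cTEC (SD, n = 3 each). It rose by log2 1.59 in Cre and 1.56 in control. Mybl2, or B-Myb, rose by 1.82 and 1.64, and E2f7, a repressor related to E2f8, by 1.55 and 2.07, in the opposite direction to E2f8. The pocket protein gene Rbl2 fell by 1.00 and 1.07. Of 8 growth regulators, 4 rose and 1 fell in Cre, and 4 rose and 2 fell in control, against 49.6% and 59.2% of all tested genes called in either direction. Myc, the growth transcription factor, fell by 0.57 in Cre and by 0.70 in control, and Trp53 rose by 0.71 and 0.60.

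Further genes of the 2 phases outside the 50 mostly rose in mTEC where they were called. Over all tested genes, 25.1% rose and 24.5% fell in Cre, and 29.3% rose and 30% fell in control. Of 41 tested further mitosis genes, 30 rose and 3 fell in Cre, and 29 rose and 3 fell in control, with a median log2 fold change of 0.84 and 0.92. Melk, a mitotic kinase, rose by 2.45 and 3.29, and the condensin subunit gene Ncaph by 1.85 and 1.65, while Smc4, the condensin ATPase, fell by 1.01 and 0.97. Of 30 further replication genes, 15 rose and none fell in Cre, and 17 rose and 4 fell in control, with medians of 0.37 and 0.54. At 15 of 30, the share called in Cre was near the 49.6% of all tested genes called there in either direction. Uhrf1, which maintains DNA methylation behind the fork, rose by 1.51 and 1.87, and the helicase gene Hells by 1.48 and 1.39. By genotype none of these genes passed in cTEC or mTEC with edgeR. At an unadjusted p under 0.05 there were 3 further mitosis genes and 1 further replication gene in cTEC, and 1 and 2 in mTEC, shares below the 19.9% and 14.6% of all tested genes.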

How the data were processed

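The counts were deposited by the authors as whole-number read counts per gene symbol for 12 libraries, 1 column each; all 12 columns were used and 0 left out. STAR, HTSeq, edgeR and the mm9 build are named, without versions or roles, per the submitters' processing notes; the sources used here do not give the annotation or the strand setting. The kit was SMARTer low-input, per the labels' protocols. The fit used edgeR 4.0.16 in R 4.3.3 with TMM scaling, filterByExpr and 4 group means over all 12 libraries (8 residual degrees of freedom), the quasi-likelihood test, 6 contrasts, and Benjamini-Hochberg adjustment over 17268 genes in each contrast at 0.05. CPM values are TMM-scaled. SEs are the log2 fold change over the root of F. Levels per kilobase used the longest GENCODE M21 transcript.

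Alternatives were DESeq2 size factors, DESeq2 1.42.0, limma 3.58.1 voom with quality weights, a robust fit, 2 other filters, fits restricted to the 2 groups at hand, and 12 fits with 1 library dropped. Replicate libraries differed beyond counting noise (chi-square per degree of freedom 3.19 to 11.9). The fit was tested on simulated data. The members, the lists and the promoter motifs were chosen with earlier results of these data known. Genes outside the 50 were named where called by genotype, as the 4 with the smallest p in each list and direction in control mTEC against cTEC at most, or from a fixed set (E2f1, Foxm1, Mybl2, Ccnd1, Cdkn1a, Cdkn1b, Cdkn1c, Myc). In the CDK inhibitor list 2 of 7 genes were not tested, and 1 of 42 further mitosis genes was not matched. Of the other marker lists, endothelial genes summed to 33.9 to 51.6 CPM in mTEC and 14.5 to 39.0 CPM in cTEC, fibroblast genes to 103 to 184 and 172 to 363 CPM, and erythroid genes to 22.4 to 126.9 and 6.74 to 75.6 CPM.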

Additional observations from a re-analysis of the deposited data

Results flagged for a closer look

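The genotype effect on Cdkn1a, the gene of the kinase inhibitor p21, differed between the cell types by a test of the difference itself. Its log2 fold change of Cre over control was 0.13 in cTEC and -0.56 in mTEC, a difference of 0.69 (edgeR, adjusted p = 0.0305). The difference did not pass in 6 of 18 other settings, those without library 2, 3, 5, 7, 9 or 10 (adjusted p up to 0.0936). The fall in mTEC did not pass in 4 of 19, those without library 2, 3, 4 or 5 (adjusted p up to 0.131). Every Cre mTEC library was below every control mTEC library, and the cTEC libraries overlapped.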

How the results depend on the processing

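Calls between mTEC and cTEC held in number under every alternative run. Mitosis genes higher in mTEC were 31 throughout in Cre, and 29 to 31 in control; replication genes were 10 to 13 in Cre and 8 to 11 in control. No result reversed. Genotype calls rested on few genes near the threshold. Mitosis genes in cTEC, 1 with all libraries, were 0 with DESeq2 size factors, DESeq2, no filter or only the libraries compared, 2 with limma voom (Cdc20 and Tpx2), and 0 to 2 with a library left out (2 without library 6 or 10). Averaged over cell types, 1 became 2 with limma voom or no filter, and 0 to 5 with a library left out (5 without library 6, 2 without library 10). In mTEC, 0 became 1 with limma voom (Ttk, log2 -0.54) and 0 to 1 with a library left out (Top2a without library 6). Replication genes in cTEC, 0, became 1 (Rrm1, log2 -0.28) with a filter of 5 CPM in 3 libraries and 0 to 1 with a library left out (Rrm1 without library 10, log2 -0.38). The cause was not tested. Another scaling moved the median of all genes by under 0.1 on the log2 scale in all 6 comparisons. No paired analysis was possible because the groups share no library number. Fen1, with 2 to 27 counts, is limited by depth.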
